A study of Gallus gallus with 4 samples.

Results

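Genes of heart muscle and of the transcription factors that build it were followed across 4 RNA sequencing libraries of whole chick (Gallus gallus) embryos. The members were taken by gene name from a list of 7, and 6 of them had a row among the 13081 genes of the table used: ACTC1, MYH7B, RYR2, TBX20, GATA4 and GATA5. HAND1 was not analysed here. Every embryo had been exposed at Hamburger-Hamilton stage 8 and was collected on day 6. The control library had DMSO, the solvent, alone. The other libraries had thalidomide at 40 µg/ml, Spermine NONOate at 10 µM, or thalidomide at 40 µg/ml together with Spermine NONOate at 10 µM, called the combination below. Thalidomide is a teratogenic drug, and Spermine NONOate is a compound that releases nitric oxide. The labels name no strain or sex and do not say whether a library is 1 embryo or a pool.

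The vertebrate heart arises from mesoderm in which a small set of transcription factors, among them GATA, T-box, HAND and NKX2 proteins, switch on each other and the genes of the contractile apparatus. ACTC1 encodes cardiac alpha actin, the thin filament protein of heart muscle, which embryonic skeletal muscle also makes. MYH7B encodes a myosin heavy chain of slow striated muscle, and RYR2 the ryanodine receptor that releases calcium from the sarcoplasmic reticulum of heart muscle and is also present in brain. TBX20 is a T-box factor needed for growth of the heart chambers and is also made by motor neurons. GATA4 and GATA5 are zinc finger factors of heart, gut and other endoderm-derived organs, and GATA4 also of the gonad. None of the 6 genes is therefore confined to the heart in a whole embryo.

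The libraries held 62576258 to 79359076 reads in genes, and 12859 to 12934 genes had at least 1 read. Each condition has 1 library, so no difference has a replicate check and no p-value was computed. Levels are normalised read counts in CPM (the reads of a gene brought to a common library size), scaled between libraries with the trimmed mean of M values (TMM). Intervals are at 95% and hold counting error alone; PCR copies of a molecule count as separate reads in them. A gene was called higher or lower when its ratio was at least 2-fold, the higher library held at least 20 reads and the interval of the ratio excluded no change. Heart muscle was present in every library by its markers: MYH15, whose product is the ventricular myosin heavy chain of chick, had 148 to 309 CPM, MYL2, a ventricular light chain, 106 to 231 CPM, and NPPA, atrial natriuretic peptide, 10.1 to 18.3 CPM. In RNA from whole embryos, fewer cells of a type and less RNA per cell cannot be told apart.

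ACTC1 on chromosome 5 was by far the most heavily read of the 6 genes and was lowest in the thalidomide library. Its level was 1009 CPM in the control library, 742 CPM with Spermine NONOate, 522 CPM with the combination and 368 CPM with thalidomide. Every step of that order exceeded counting error. The thalidomide library thus lay 2.74-fold below control (log2 -1.45, interval -1.47 to -1.43), the single member called lower in any comparison.

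MYH7B on chromosome 20 moved within a narrow range. The control library had 17.8 CPM, thalidomide 18.2 CPM, Spermine NONOate 13.9 CPM and the combination 21.8 CPM. Control and thalidomide were not separable by counting error, and the highest library exceeded the lowest by 1.57-fold. RYR2 on chromosome 3 was highest in the libraries with thalidomide. It had 11.1 CPM in control, 14.5 CPM with Spermine NONOate, 20.1 CPM with the combination and 23.5 CPM with thalidomide, each separate from its neighbour in that order. Thalidomide against control gave 2.11-fold (log2 1.08, 0.95 to 1.20), which passed the size rule.

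TBX20 on chromosome 2 spanned a 4.09-fold range, with the donor library lowest. It was read at 3.39 CPM with Spermine NONOate, 6.59 CPM in control, 9.45 CPM with the combination and 13.9 CPM with thalidomide. These values rest on 203, 482, 733 and 978 reads, and all neighbours in the order were separate. The level in the thalidomide library was 2.10-fold that of control (log2 1.07, 0.91 to 1.23).

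GATA4 on chromosome 3 had the widest range of the 6 and the fewest reads in control. Its levels were 2.11 CPM in control, 3.74 CPM with Spermine NONOate, 7.42 CPM with the combination and 8.84 CPM with thalidomide, from 154, 224, 576 and 624 reads. All neighbours were again separate by counting error. GATA4 in the thalidomide library was 4.19-fold above control (log2 2.07, 1.81 to 2.33), and 2.595% of the 12138 genes tested had a ratio at least as far from no change.

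GATA5 on chromosome 20, the paralog of GATA4, did not follow it. Control had 50.8 CPM, thalidomide 49.6 CPM, the combination 39.4 CPM and Spermine NONOate 35.4 CPM. Control and thalidomide could not be separated by counting error (log2 -0.04, -0.10 to 0.03), and no comparison of GATA5 passed the size rule.

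**Figure D1:**
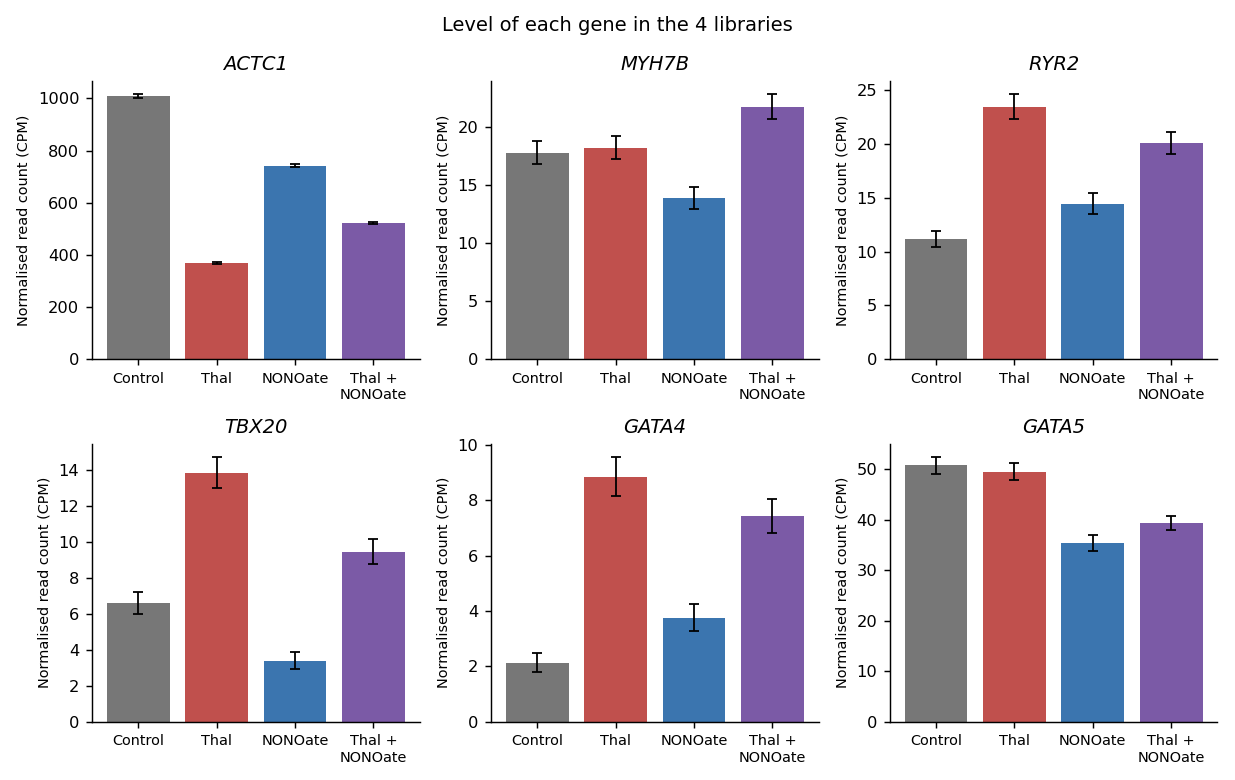
Bars give the normalised read count (CPM, linear axis from 0) of each of the 6 genes in the 4 libraries, 1 library per bar, with 95% exact Poisson intervals for counting error; Thal is thalidomide and NONOate is Spermine NONOate. ACTC1 is lowest and TBX20, GATA4 and RYR2 are highest in the thalidomide library, while GATA5 stays between 35.4 and 50.8 CPM.

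The study asks how nitric oxide modifies the transcriptome of thalidomide-treated embryos, and thalidomide can be read without the donor (thalidomide against control) and with it (the combination against Spermine NONOate). These comparisons have no library in common. Without the donor, 3 of the 6 genes were called higher, GATA4, RYR2 and TBX20, and 1 lower, ACTC1. Over all genes tested, 9.31% were called higher and 7.21% lower. The median log2 ratio of the 6 was 0.55, against -0.01 over all genes tested. Scaling by total counts instead made the same 4 calls. It moved the median over all genes by 0.20 on the log2 scale, and the share of higher genes among all called went from 56.4% to 74.9%.

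With the donor present, TBX20 alone was called higher and none was called lower. The background was 9.73% higher and 6.1% lower of 12161 genes. TBX20 stood 2.79-fold above the Spermine NONOate library (log2 1.48, 1.25 to 1.71). GATA4 was just short of the rule at 1.98-fold (log2 0.99, 0.77 to 1.22), and passed it at log2 1.15 under total counts, where the median over all genes moved by 0.16 and the share of higher genes among all called went from 61.5% to 77.7%. The log2 ratios of the others were 0.65 for MYH7B, 0.47 for RYR2, 0.15 for GATA5 and -0.51 for ACTC1.

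The thalidomide ratio differed in size between the settings by more than counting error for each of the 6 genes. The share of all genes that did so was not computed, so the count is not a trait of these 6. For ACTC1 the log2 ratio was higher by 0.95 with the donor than without (0.92 to 0.97), that is, nearer to no change. For GATA4 it was lower by 1.08 (log2 difference -1.08, -1.42 to -0.74), and for RYR2 the difference was -0.60 (-0.77 to -0.43). MYH7B (0.61), TBX20 (0.41) and GATA5 (0.19) had larger ratios with the donor. With 1 library per condition, the spread between embryos behind these differences was not measured.

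In direction, both libraries with thalidomide lay above both without for TBX20, GATA4, RYR2 and MYH7B, and below both for ACTC1. Over 12273 genes, 33.5% lay above in this way and 33.1% below, so the separation is shared by most genes of the table. GATA5 was the member whose groups overlapped.

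**Figure D2:**
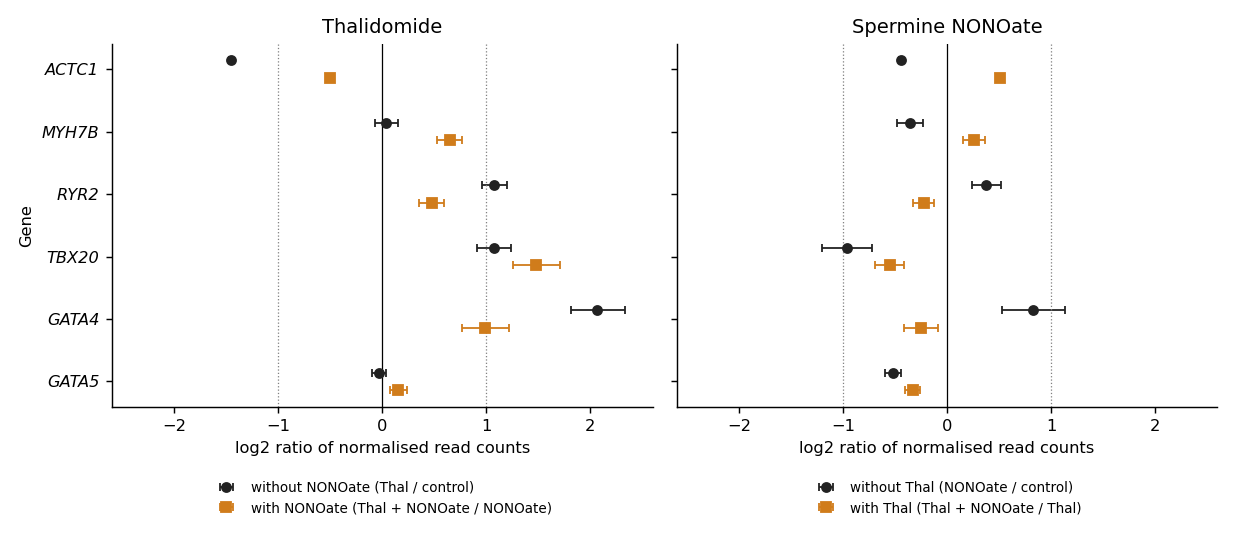
Points are log2 ratios of normalised read counts for the 6 genes with 95% counting intervals, for thalidomide (left) without and with Spermine NONOate and for Spermine NONOate (right) without and with thalidomide; dotted lines mark 2-fold, Thal is thalidomide and NONOate is Spermine NONOate. GATA4 has the largest ratio for thalidomide without the donor (2.07), and the donor ratios of ACTC1, MYH7B, RYR2 and GATA4 lie on opposite sides of 0 in the 2 settings.

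Spermine NONOate is likewise read without thalidomide (against control) and with it (the combination against thalidomide), in comparisons with no library in common. Against control none of the 6 genes passed the rule, beside 4.39% of 12066 genes called higher and 1.29% lower. TBX20 came closest, with a log2 ratio of -0.96 (-1.20 to -0.72) to control. GATA4 was at 0.83 (0.52 to 1.13). The remaining log2 ratios were -0.52 for GATA5, -0.44 for ACTC1, -0.36 for MYH7B and 0.38 for RYR2. Thus 4 of the 6 were below control, with a median of -0.40, beside -0.04 over all genes tested. Smooth muscle markers were also low in this library: the 8 found summed to 956 CPM, against 1873 CPM in control, 1867 CPM with the combination and 2601 CPM with thalidomide, and their part in these ratios was not tested.

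Where the donor was added to thalidomide, again no member passed the rule, while 3.74% of 12154 genes were called higher and 1.24% lower. ACTC1 in the combination was 1.42-fold above thalidomide alone (log2 0.50, 0.48 to 0.53), and MYH7B was at 0.26. The log2 ratios were -0.55 for TBX20, -0.33 for GATA5, -0.25 for GATA4 and -0.23 for RYR2. TBX20 and GATA5 were therefore lower with the donor in both settings, each by more than counting error but short of the size rule. How many of all genes did so was not counted.

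Set against control, the combination had GATA4 alone called higher, at 3.52-fold (log2 1.81, 1.56 to 2.08), and none lower. Of 12176 genes, 10.2% were called higher and 4.11% lower. RYR2 was at log2 0.85 and TBX20 at 0.52, while ACTC1 was at -0.95, close to the 2-fold limit. MYH7B (0.29) and GATA5 (-0.37) were nearer to no change. Under total counts RYR2 passed the rule too (1.07), the median over all genes moved by 0.22, and the share of higher genes among all called went from 71.2% to 87.7%. This comparison has the control library in common with those of thalidomide and of Spermine NONOate.

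In the authors' deposited table, ACTC1 (p = 0.0228) and GATA4 (p = 0.0226) had an unadjusted p under 0.05 for thalidomide against control. GATA4 (p = 0.0376) did so for the combination against control in the authors' deposited table, and no member did in the other 3 comparisons. Between 4.53% and 4.98% of genes had such a p in each comparison of the authors' deposited table.

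Shares of reads within one library do not depend on the scaling between libraries. Reads are not corrected for transcript length, so the size of a share says nothing of the relative level of the genes, and its change between libraries is what can be read. Among reads of GATA4, GATA5 and GATA6, another heart and gut factor, GATA4 had 3.35% in control (Clopper-Pearson interval 2.85 to 3.91). The share was 7.96% (6.98 to 9.02) with Spermine NONOate, 13.3% (12.4 to 14.3) with thalidomide and 13.5% (12.5 to 14.5) with the combination. The latter shares overlapped, and both were above the other libraries.

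TBX20 was compared with TBX5, a T-box factor of heart and forelimb. Of their joint reads TBX20 took 9.67% in control and 10.1% with Spermine NONOate, whose intervals overlapped (8.86 to 10.5 and 8.79 to 11.5). It took 15.7% with the combination and 23.1% with thalidomide. TBX5 itself was at log2 -1.03 with Spermine NONOate alone, called lower, and at -0.97 with total counts and -0.99 with upper quartile scaling, where it was not called.

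ACTC1 was set beside ACTA1, the skeletal muscle alpha actin, and ACTG2, a smooth muscle actin. ACTC1 made up 59.0% of their reads in control, 66.8% with Spermine NONOate, 48.9% with the combination and 33.8% with thalidomide. The share was highest with Spermine NONOate although ACTC1 itself was below control there (742 against 1009 CPM). A share also rises when the other actins of the set fall. These actins are nearly identical in sequence, and no source used here says how reads common to them were counted, so the split is uncertain. RYR2 took 61.7% of RYR2 and RYR3 reads in control, 57.2% with Spermine NONOate, 54.4% with the combination and 54.2% with thalidomide. The Spermine NONOate interval (54.7 to 59.7) overlapped those of control (59.0 to 64.3), the combination (52.5 to 56.2) and thalidomide (52.5 to 56.0). The control interval lay above those of both libraries with thalidomide. RYR3 was itself called higher in the thalidomide library (log2 1.52).

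**Figure D3:**
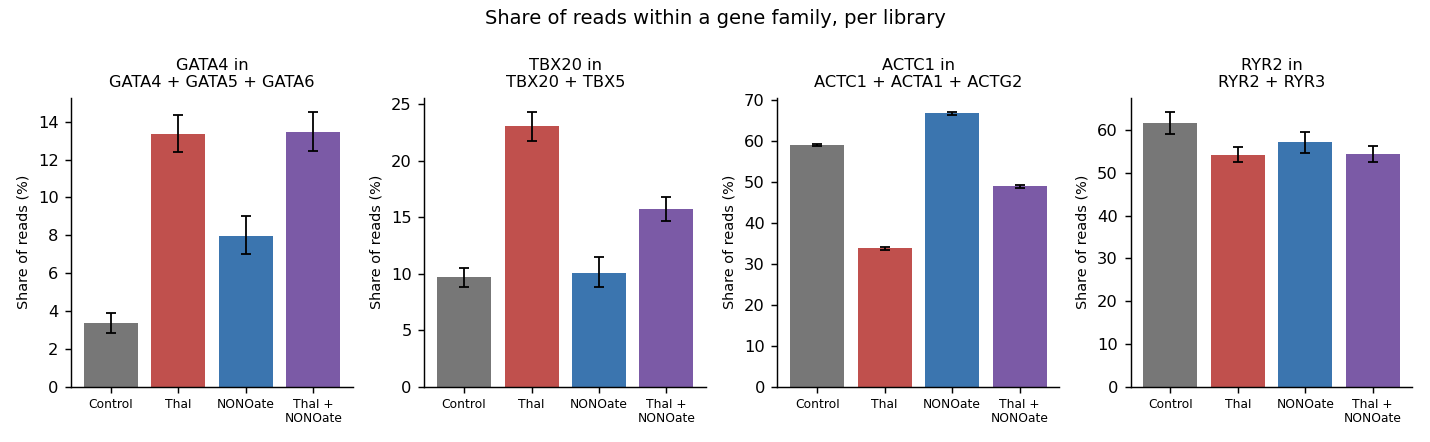
Bars give the share of reads (%, axis from 0) that 1 gene takes of a small set of related genes in each of the 4 libraries, with 95% Clopper-Pearson intervals; Thal is thalidomide and NONOate is Spermine NONOate. The GATA4 share is 3.35% in control and 13.3% and 13.5% in the libraries with thalidomide, and the ACTC1 share is lowest with thalidomide (33.8%).

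Other heart genes did not move as a block. Among 26 tested genes of the cardiac sarcomere and Z disc, 3 were called higher and 3 lower in thalidomide against control, with a median log2 ratio of -0.23. MYOZ2, a Z disc protein of heart and slow muscle (-1.56), TNNC1, the slow and cardiac troponin C (-1.16), and the myosin chaperone gene UNC45B (-1.05) were lower. The ventricular myosin gene MYH15 (1.06) and the splicing regulator RBM20 (1.09) were among the higher ones. With the donor present 3 were higher, among them the formin gene FHOD3 (1.18) and RBM20 (1.10), and 1 was lower, MYL3, a myosin light chain (-1.07). Lower calls in this list depended on scaling: with total counts 1 remained in thalidomide against control and none in the combination against Spermine NONOate. In the combination against control 3 were lower, TNNC1 (-1.21), MYL2 (-1.13) and MYL3 (-1.06), of which none was called with total counts.

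Of 22 tested cardiac transcription factors and their partners, 3 were called higher and 1 lower with thalidomide. Most of the list went the other way from the higher calls: 14 lay below control and 8 above, with a median log2 ratio of -0.27. In the combination against Spermine NONOate 16 lay above and 6 below, with a median of 0.33. MKL2, a coactivator of serum response factor (1.63), PRDM16 (1.30) and TEAD1 (1.15) were higher, and the small homeodomain protein gene HOPX was lower (-1.59). In the combination against Spermine NONOate, MKL2 (1.92), PRDM16 (1.95) and TEAD1 (1.43) were again higher, with MYOCD, the coactivator myocardin (1.92), and HOPX was lower (-1.04), a call lost with total counts. MYOCD was read 210 times with Spermine NONOate and 754 times in control, and was called lower with the donor alone (-1.55). Regulators in this list that were not called with thalidomide include those of the key cardiac set. There NKX2-5 had a log2 ratio of -0.35, GATA6 -0.33, TBX5 -0.41, HAND2, the paralog of HAND1, -0.26, and MYOCD 0.20. In the combination against control MKL2 (1.56), PRDM16 (1.31) and TEAD1 (1.03) were higher and HOPX (-1.49) lower.

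Among the sarcomere, transcription factor and calcium lists, only calcium handling and conduction had thalidomide calls in 1 direction under TMM scaling. With thalidomide 5 of 24 were higher and none lower (median 0.32): CACNA1C, the pore of the cardiac L-type calcium channel (1.75), its accessory subunit genes CACNA2D1 (1.63) and CACNB2 (1.05), the pacemaker channel gene HCN4 (1.17) and the phosphodiesterase gene PDE3A (1.01). The count of higher genes was 4 to 9 over the scalings tried. With the donor present 8 of 23 were higher and none lower (median 0.36), among them PDE3A (1.71), CACNA1C (1.56), CORIN, which processes natriuretic peptides (1.41), and CACNA2D1 (1.28). CASQ2, the calcium buffer that works with RYR2 in the sarcoplasmic reticulum, was at -0.84 with thalidomide, short of the rule. So were PLN, which encodes phospholamban (-0.77), NPPA (-0.13), and ATP2A2, the calcium pump of the sarcoplasmic reticulum (0.09). With Spermine NONOate alone, 0 sarcomere, 0 calcium and 2 transcription factor genes, MYOCD and TBX5, were called. With total counts or upper quartile scaling MYOCD was called and TBX5 was not. Of all 22 tested transcription factor genes, MYOCD and TBX5 among them, 21 lay below control and 1 above (median -0.35, beside -0.04 over all genes). For the sarcomere list 18 lay below and 8 above (median -0.15), and for the calcium list 12 and 12 (median 0.02). The combination against control had 8 calcium and conduction genes higher and none lower (median 0.56), among them CACNA2D1 (1.64), CACNA1C (1.60) and the sodium-calcium exchanger gene SLC8A1 (1.24). No gene of these 3 lists was called in the combination against thalidomide.

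Long and short mRNAs were also read as lists, chosen by hand after the data were seen, with no length table over all genes. Of 47 genes chosen for their very long mRNAs, 20 were called higher and none lower without the donor (median 0.95), and 27 higher with it (median 1.06). Of 40 genes with short mRNAs, 10 were lower without the donor (median -0.76) and 19 with it (median -0.99). With total counts the long genes called higher were 34 and 32, and the short genes called lower 1 and 11. With Spermine NONOate alone the medians were -0.06 and 0.06. The short list holds mainly respiratory chain, protein import and RNA processing genes, so length and function cannot be told apart in it. RYR2, like CACNA1C, has a very long mRNA, and its ratios of 1.08 and 0.47 stand beside 0.95 and 1.06 for the long genes. MYH7B has a long mRNA as well and was at 0.04 and 0.65. ACTC1, like TNNC1 and MYL3, has a short one, and its ratios of -1.45 and -0.51 stand beside -0.76 and -0.99. The part of transcript length in the ratios of the 6 genes was not tested.

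**Figure D4:**
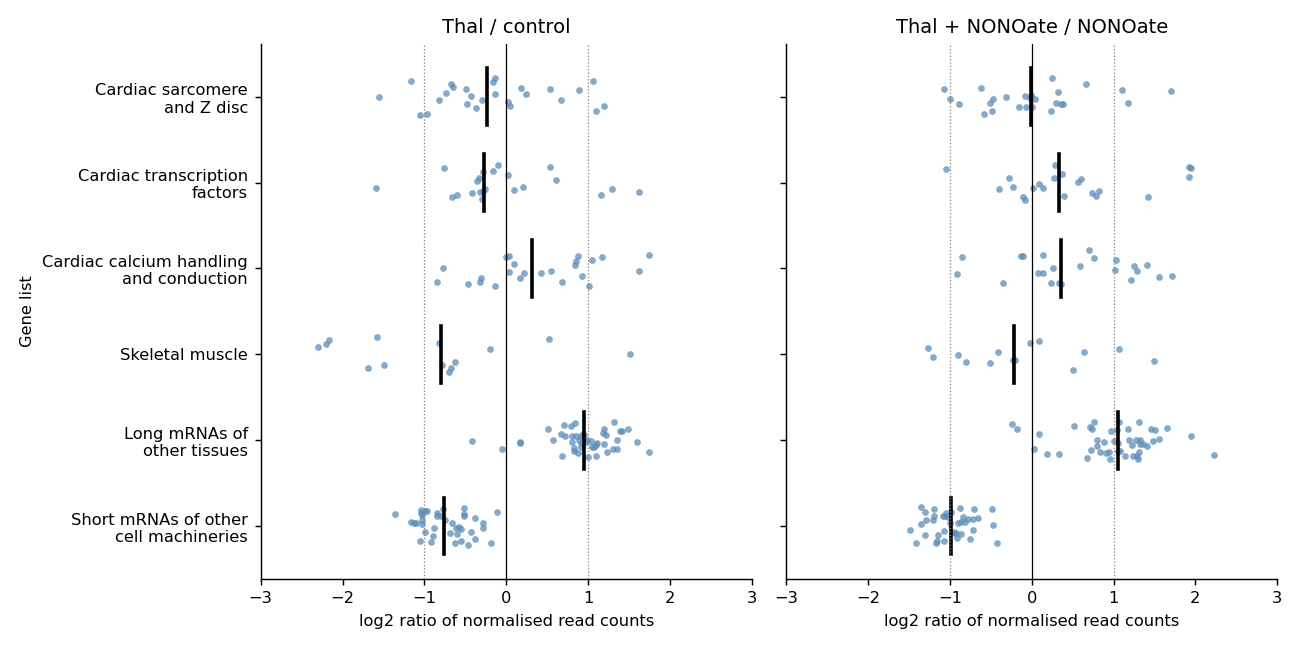
Each point is the log2 ratio of 1 gene, by gene list, for thalidomide without (left) and with (right) Spermine NONOate; bars are list medians, dotted lines mark 2-fold, Thal is thalidomide and NONOate is Spermine NONOate. The long mRNAs centre at 0.95 and 1.06 and the short ones at -0.76 and -0.99. Genes of the 3 cardiac lists lie between these centres and beyond them on both sides. Those beyond include HOPX (-1.59) and CACNA1C (1.75) without the donor, and MYL3 (-1.07) and PRDM16 (1.95) with it.

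Markers of tissues that make the same genes were also read. The 14 skeletal muscle markers summed to 839 CPM in control, 610 CPM with Spermine NONOate, 451 CPM with the combination and 346 CPM with thalidomide, the order of ACTC1, and 6 were called lower and 1 higher in thalidomide against control. The fast light chain gene MYL1 (-2.17), the fast troponin gene TNNI2 (-2.20), CAV3 (-2.30) and the myogenic factor gene MYOD1 (-1.50) were among the lower ones. None of the 14 was at 0 reads in any library. The cardiac sarcomere list without ACTC1 and MYH7B summed to 2811, 2402, 1986 and 2182 CPM in the same order of libraries, in which the combination, not thalidomide, was lowest. The part of skeletal muscle in the ACTC1 values was not tested.

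Endoderm regulators, which GATA4 and GATA5 accompany in gut and liver, summed to 31.4 CPM in control, 38.1 CPM with thalidomide, 49.5 CPM with Spermine NONOate and 67.3 CPM with the combination, an order unlike that of GATA4. HNF4A, a factor of liver, gut and kidney, was called higher than control in each treated library, at log2 2.51 with thalidomide, 2.98 with Spermine NONOate and 3.56 with the combination. Early gonad and coelomic genes had 1 higher and 1 lower of 10 with thalidomide, WT1 (1.04) and NR0B1 (-1.33). Epicardium and endocardium genes had WT1 as the single call of 9. Smooth muscle had 1 gene of 8 called lower, RGS5 (-1.73), while 5 of the 8 lay above control and 3 below (median 0.38). Sympathoadrenal genes had 2 of 10 higher, DDC (1.53) and TH (1.29), and 2 lower, SLC18A2 (-1.13) and GATA3 (-1.03), neither of which was called with total counts (-0.93 and -0.83). Of 19 close paralogs of the members, RYR3 and MYH15 were called higher and GATA3 lower with thalidomide, and 3 higher and 0 lower with total counts. The part of these tissues in the values of GATA4, GATA5 and TBX20 was not tested.

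Over the 4 libraries, the pattern of each member that varied at least 2-fold was matched against 9584 other genes by distance between centred log2 levels. With 4 points, genes of unrelated function can lie near a pattern, and the number of near genes differed between members. Nearest to ACTC1 were UROD, an enzyme of haem synthesis (distance 0.03), UNC13D (0.05) and MYOD1 (0.08), and 25 genes lay within 0.2. MYOD1 ran from 42.8 CPM in control through 32.8 CPM with Spermine NONOate and 22.97 CPM with the combination to 15.2 CPM with thalidomide. Nearest to RYR2 were NUP210, a nuclear pore protein gene (0.02), GOLGA4 (0.08) and CHRM3 (0.08), with 55 genes within 0.2. UNC79 (0.06), SLC22A15 (0.19) and GPR144 (0.23) were nearest to GATA4, which had 2 genes within 0.2. TBX20 had no gene within 0.2, and KIF14, a mitotic kinesin (0.25), RBM20 (0.29) and RIF1 (0.33) came closest.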

How the data were processed

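Total RNA of whole embryos was extracted with Trizol, per the labels' protocols. The submitters' processing notes name TopHat2 2.0.8, the build galGal4 and DESeq, and the file headers name Ensembl release 75. No source used here names the counting tool or says whether strand was used, so reads of overlapping genes on opposite strands cannot be separated. The authors deposited raw read counts per gene, with a log2 fold change and an unadjusted p-value for each of 5 comparisons, per the file headers.

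Counts were scaled with TMM (edgeR 4.0.16, R 4.3.3) over genes with at least 20 reads in at least 2 libraries. Ratios have 0.5 reads added to each count, and their intervals are exact conditional binomial. The size rule ran over the whole table. It was tried on simulated Poisson counts with planted changes and no spread between embryos, so that trial says nothing of such spread. The members and the 10 gene lists were chosen with earlier results of these data known, and the 2 mRNA length lists were added later. Of 202 listed symbols 138 were found. Genes named from a list are up to 4 called ones per comparison, the interval bound furthest from no change deciding, and a set of key cardiac genes. UNC45B, RBM20, HCN4 and MYOD1 in thalidomide against control, and HOPX in the combination against Spermine NONOate, fell outside that rule and were named after their values were seen. Some genes counted in a list are not reported here by name. Replicates do not exist, so the counting depth sets the precision given.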

Additional observations from a re-analysis of the deposited data

Results flagged for a closer look

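For 4 genes the Spermine NONOate ratio pointed one way without thalidomide and the other way with it, each beyond counting error. The share of all genes with such a reversal was not computed. ACTC1 had a log2 ratio of -0.44 against control and 0.50 when the donor was added to thalidomide. MYH7B had -0.36 and 0.26 in the same order. GATA4 went the opposite way, with 0.83 and -0.25, as did RYR2, with 0.38 and -0.23. None of these ratios passed the size rule. For each gene the difference between these settings is the same quantity as the difference between its thalidomide ratios with and without the donor. It is therefore not a separate observation, and its interval holds counting error alone. It was not tested against the spread between embryos, which 1 library per condition does not measure.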

How the results depend on the processing

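Of the 30 ratios of the 6 genes, no call changed with DESeq2 1.42.0 size factors, upper quartile scaling, TMM without the 50 most abundant genes, a minimum of 100 reads or none, or 5 reads added. Dropping the interval from the rule, an alternative chosen after seeing the data, changed none either. With total counts the members called numbered 2 in the combination against control, from 1. Of 12176 genes, 1826 were then called higher and 255 lower, from 1239 and 500. In the combination against Spermine NONOate 2 members were called, from 1. Of 12161 genes, 1631 were then called higher and 468 lower, from 1183 and 742. The ratio of GATA5 in thalidomide against control changed sign with total counts, to 0.16. At 1.5-fold, 2 of the 6 were called with Spermine NONOate against control (from 0), where 13% of all genes tested were called, 3 in the combination against control (36.3% of all genes) and 3 in the combination against Spermine NONOate (39% of all genes). At 4-fold, 1 was left in thalidomide against control, GATA4 (2.86% of all genes), and 0 in both of the latter (2.37% and 1.97%). Centring on genes of like protein length was not run, as protein lengths were not used here. No paired analysis was possible because each condition has 1 library and the labels give no replicate numbers to pair. An additive model over the 4 libraries, which would take the difference between donor settings as error, was not run. Depth limits GATA4 in control and TBX20 with Spermine NONOate most, at 154 and 203 reads.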
